A study of Mus musculus with 9 samples.

Results

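Cells of the iPax7 line, myogenic progenitors derived from pluripotent stem cells, that had been injected into mouse muscle and re-isolated were compared with adult satellite cells from the same muscle. The comparison used 6 of the 9 arrays of the study, the 3 labelled iPax7 re-isolated and the 3 labelled adult satellite cells, chosen by their sample titles. The remaining 3 arrays held re-isolated cells of a sister line, iPax3, and entered the filter on dim probes, the estimate of the spread and a side comparison given near the end. All cells came from the tibialis anterior, the muscle at the front of the shin, of mice of 3 months. The iPax7 cells came from hosts given as NSG/NSGmdx4cv, immunodeficient mice of which mdx4cv marks a dystrophin mutation, and are labelled mononucleated cells. The satellite cells came from Pax7-ZsGreen mice, a strain with a green fluorescent reporter of Pax7. For each sample 1500 cells were sorted, from 3 mice per line over 3 independent experiments, and their RNA was amplified before labelling. The labels do not say how the sort separated transplanted from host cells, whether mice were pooled, or how many clones each line represents. No satellite cells from NSG hosts were among the samples analysed here, so that strain, sort and cell origin cannot be told apart. Nothing in the labels ties each array to its own mouse, and p-values therefore reflect array-to-array spread, which may be technical.

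Satellite cells are the resident stem cells of skeletal muscle. They lie between the fibre and its basement membrane and express the paired-box factor Pax7. Signals such as Notch keep them quiescent until injury makes them divide and fuse. The muscle also holds fibro-adipogenic progenitors, connective tissue cells marked by the PDGF receptor alpha and Sca-1, which secrete collagens, small leucine-rich proteoglycans and regulators of Wnt, BMP and activin signalling. Progenitors derived from pluripotent stem cells resemble embryonic or fetal muscle precursors in culture, and the question of this comparison was how close they come to resident satellite cells after a stay in the muscle.

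Values are log2 signals relative to the 75th percentile of their own array, called levels here, so that a level of 0 is the 75th percentile. A gene was called when its limma adjusted p (Benjamini-Hochberg over 22705 genes) was under 0.05. Where no array of the lower group measured a probe well above background, the change is given as at least N-fold. For such a bound each of those arrays contributed its dimmest signal among well measured probes, or the probe's own signal where that was higher. An adjusted p beside a bound belongs to the difference of the levels as measured, and the bound itself was not tested. The number of arrays limits the precision, and no called difference was smaller than 4.06 log2 units.

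The secreted regulators follistatin (Fst) and chordin-like 2 (Chrdl2) and the matrix proteoglycan decorin (Dcn) separated the groups without overlap, and each result rests on the 60-base probe that stands for the gene. The probe sequences are shown so that the transcript stretch measured can be seen. Coordinates are those of the array's annotation (mm8), no part of the sequence is marked, and the Fst and Chrdl2 probes lie across an intron.
Fst, chr13:115575362-115576034, minus strand: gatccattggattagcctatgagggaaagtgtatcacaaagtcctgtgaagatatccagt
Chrdl2, chr7:99903427-99907778, plus strand: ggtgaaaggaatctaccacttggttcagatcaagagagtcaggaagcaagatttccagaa
Dcn, chr10:96947287-96947346, plus strand: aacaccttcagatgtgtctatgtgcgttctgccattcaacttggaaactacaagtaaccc

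The arrays were not equal. The share of probes well above background lay between 56.6% and 73.2% on the iPax7 arrays and between 57% and 79.7% on the satellite arrays. Slides and scan days were not shared between the groups. iPax7 replicate 1 was on slide 1, iPax7 replicates 2 and 3 on slide 2, and the satellite replicates on slides 3, 4 and 5. All iPax7 arrays were scanned on scan day 1, satellite replicate 1 on scan day 2 and satellite replicates 2 and 3 on scan day 3. Batch and group therefore cannot be told apart. Within the satellite group, what is particular to replicate 1 cannot be told apart from its scan day. Summed over all genes on the linear scale, iPax7 replicate 1 reached 97600 times its 75th percentile, against 49800 and 57500 in replicates 2 and 3, and the satellite replicates 52000, 82800 and 126000. Sums of marker lists are to be read beside these totals. Satellite replicate 1 correlated with the iPax7 arrays at a mean r of 0.655 across genes, against 0.585 and 0.573 for satellite replicates 2 and 3, a description over genes that are not independent. Satellite replicate 3 had a Pax7 level of -0.66, against 2.89 and 3.53 in satellite replicates 1 and 2.

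In all, 121 of 22705 genes were called (0.533%), 99 higher (0.436%) and 22 lower (0.0969%) in iPax7 cells. Of the called genes 81.8% were higher, and with normexp background correction this was 72.5% of 149 calls, 78 of them among the 121. Without an adjustment, 2818 genes had a p under 0.05 against 1135 expected. The 121 called genes all had iPax7 and satellite arrays that did not overlap, as had 3752 genes in all (16.5%). Of all genes, 7.64% were higher on every iPax7 array than on any satellite array and 8.88% were lower. The median difference over all genes was -0.153, and other scalings moved it between -0.38 and 0.08. With the main scaling 45.9% of all genes were higher in iPax7 cells. Counts of list members below are to be read beside these shares. All 99 rising genes were well above background on the 3 iPax7 arrays. Of these, 24 were above background on no satellite array, 43 on 1 or 2 and 32 on all 3. The filter on dim probes partly sets such counts, since a gene dim in satellite cells could enter only through re-isolated arrays. The calls leaned on single arrays: without satellite replicate 1 the count was 490, of which 114 were among the 121, and without iPax7 replicate 1, 2 or 3 it was 35, 58 or 41. Without satellite replicate 2 or 3 it was 47 or 62, and without iPax3 replicate 2 it was 77. A core of 31 genes, 28 higher and 3 lower, stayed called whichever of the 9 arrays was left out.

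Several genes of secreted proteins that bind activin, BMP or Wnt were among the calls. Fst, whose product follistatin binds activins and myostatin, had levels of 4.15, 3.87 and 3.07 on the iPax7 arrays and -7.32, -6.22 and -6.73 on the satellite arrays. It thus lay above the 75th percentile of every iPax7 array, while no satellite array measured it well above background, and Fst rose at least 470-fold (adjusted p = 0.00114). Dkk2, which encodes a secreted ligand of the Wnt co-receptors, had levels of 3.82, 3.06 and 3.18 against -8.88, -6.22 and -6.84, at least 370-fold (adjusted p = 0.00199). Fstl1, a follistatin-like glycoprotein, had levels of 3.98, 4.2 and 3.44 against -1.2, -5.13 and -4.73. Its satellite replicate 1 lay above the other satellite arrays, and the rise of 7.56 ± 1.08 (SE; adjusted p = 0.0219) held in 4 of the 9 fits that left out 1 array.

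Bmp5, which encodes a BMP ligand, rose by 7.64 ± 0.76 (SE; adjusted p = 0.00417), from -5.1, -6.23 and -6.41 in satellite cells to 0.56, 2.57 and 2.06 in iPax7 cells. The call held in all 9 such fits, while another Bmp5 probe, above background on all 6 arrays, differed by 1.36. The secreted frizzled-related proteins Sfrp1 and Sfrp2, which bind Wnt ligands, rose as well. Sfrp1 had levels of 5.46, 4.26 and 4.12 against -2.11, -6.24 and -6.82 (9.67 ± 1.19, adjusted p = 0.0111), and its other probe differed by 3.14. Sfrp2 had levels of 4.52, 1.77 and 0.02 against -7.52, -6.24 and -5.51, at least 156-fold (adjusted p = 0.0339). The iPax7 arrays of Sfrp2 differed among themselves by more than 4 log2 units, and the call held in 2 of 9 fits.

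Chrdl2, a BMP-binding protein and known marker of quiescent satellite cells, moved the other way. The levels of Chrdl2 were -4.08, -3.94 and -4.07 against 4.54, 5.07 and 5.44 in satellite cells, and it fell by 9.04 on the log2 scale (SE 0.69, adjusted p = 0.00199). Both groups were tight, the probe was still above background on 2 iPax7 arrays, and the call held in all 9 fits. Over the 34 TGF-beta and BMP genes tested, 3 rose (Fst, Fstl1, Bmp5), Chrdl2 fell and the median was -0.42, beside -0.153 over all genes. Without satellite replicate 1 the list had 4 rises and 2 falls, and over probes above background on all 9 arrays it had 1 rise and 0 falls among 23 genes. The receptor gene Tgfbr2 was higher on every iPax7 array (4.54 ± 0.85, adjusted p = 0.0635). The ligand gene Bmp6, also known from quiescent satellite cells, was lower on every one (-3.5 ± 0.74, adjusted p = 0.0966). Of 29 Wnt genes 3 rose and 0 fell, and the median was 1.49. Over probes above background on all 9 arrays, which left 17 of these genes, 0 were called and the median was -0.37. That filter drops any probe dim on a single array, so it cannot test Dkk2, Sfrp2, Fst or Chrdl2. The count of Wnt genes was 1 without iPax7 replicate 1 or satellite replicate 2, and Sfrp4 (3.2 ± 0.87, adjusted p = 0.188) did not pass.

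Genes of the extracellular matrix were called in 5 lists. Dcn had levels of 8.37, 7.19 and 7.36 against -0.17, -1.71 and -1.7 in satellite cells, which all measured it above background (8.83 ± 0.75, adjusted p = 0.00199). Podn, which encodes podocan, a proteoglycan of the same superfamily, had levels of 6.65, 4.91 and 4.67 against -1.67, -3.11 and -1.91 (7.64 ± 0.88, adjusted p = 0.00752). Both calls held in all 9 fits and under all 14 alternatives. Of 13 small leucine-rich proteoglycans tested, 5 rose (Dcn, Podn, Aspn, Ecm2 and Omd), 0 fell, and the median was 4.23. The count fell to 3 without iPax7 replicate 1, iPax7 replicate 3 or satellite replicate 2. Over probes above background on all 9 arrays, which left 8 of the 13 genes, 2 rose and the median was -0.1. That filter leaves out Aspn, Ecm2 and Omd, whose probes were dim on satellite arrays, so it cannot test them. A dimmer second Dcn probe differed by 2.77. Lum (5.25 ± 1.04, adjusted p = 0.0764) and Ogn (4.23 ± 1.22, adjusted p = 0.21) were higher on every iPax7 array and did not pass.

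The genes Ecm2, Aspn, Omd and Ogn follow each other on chromosome 13, and 3 of these neighbours were called. Aspn, which encodes asporin, had levels of 3.54, 2.5 and 2.9 against -8.84, -5.18 and -6.64, at least 286-fold, and its call held in all 9 fits. Omd, osteomodulin, had levels of 3.66, 0.14 and -0.08 against -8.06, -6.45 and -5.21, at least 85.6-fold. Ecm2 had levels of 3.14, 1.36 and 3.83 against -3, -6.23 and -6.56 (8.04 ± 1.14, adjusted p = 0.021). The calls of Omd and Ecm2 held in 5 of 9 fits, and another Ecm2 probe differed by 4.13. The order of neighbours was taken from RefSeq over 98 called and 16782 tested genes that could be placed, among which 3 adjacent pairs of called genes were found.

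**Figure D1:**
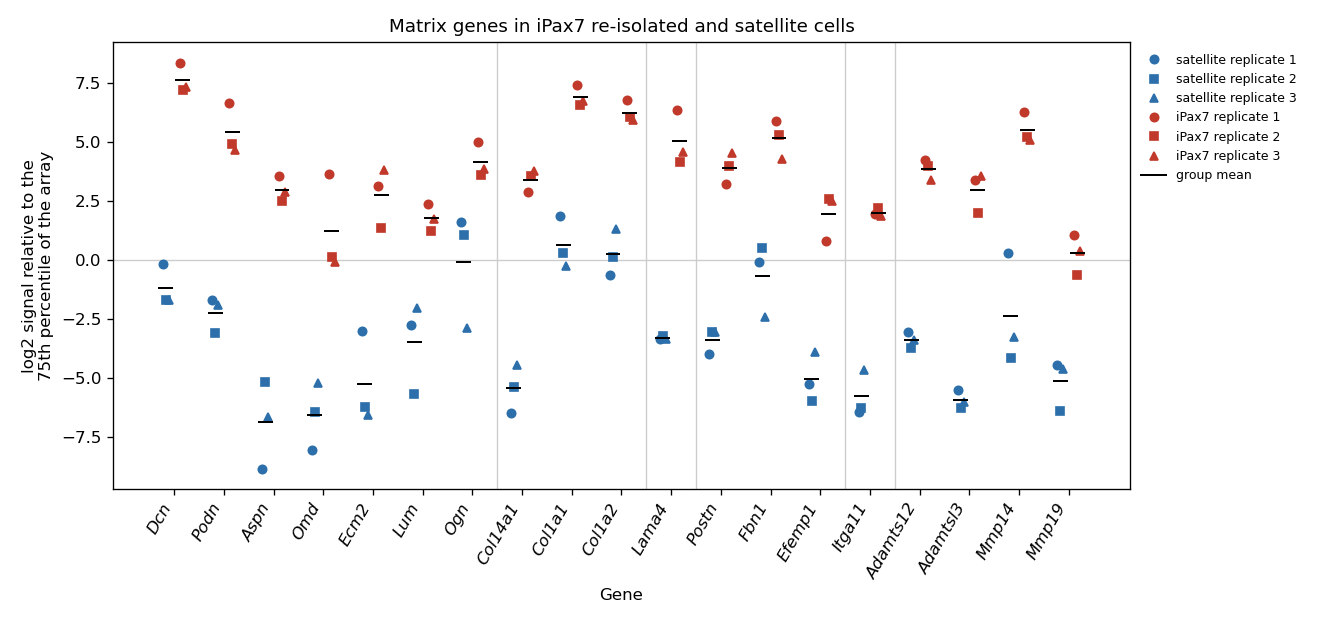
Levels of matrix genes on each array (log2 signal minus the array's 75th percentile), satellite cells in blue and iPax7 re-isolated cells in red, with symbols for replicates and bars for group means. Vertical lines part proteoglycans, collagens, the laminin gene Lama4, matricellular and elastic fibre genes, the integrin gene Itga11 and proteases; Lum and Ogn are the members shown that did not pass, with adjusted p of 0.0764 and 0.21.

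Collagen genes rose beside them. Of 14 fibrillar and fibril-associated collagens 13 were higher in iPax7 cells, beside 45.9% of all genes. Of the 14, 3 rose and the median was 3.65. Col14a1, a fibril-associated collagen, had levels of 2.9, 3.56 and 3.75 against -6.48, -5.37 and -4.43 (8.83 ± 0.73, adjusted p = 0.00199), and its second probe differed by 8.6. Col1a1 and Col1a2, the chains of collagen I, were well measured in both groups. Col1a1 stood at 7.43, 6.56 and 6.74 against 1.86, 0.3 and -0.23 (6.27 ± 0.75, adjusted p = 0.00893), and Col1a2 at 6.78, 6.06 and 5.92 against -0.63, 0.12 and 1.32 (5.99 ± 0.74, adjusted p = 0.0111). A dimmer Col1a2 probe differed by 2.36. Col3a1, of collagen III, did not pass (5.19 ± 1.08, adjusted p = 0.0928). Its satellite arrays ran from -0.39 to 4.02, below every iPax7 array. The list count was 1 without iPax7 replicate 1 and 6 without satellite replicate 1.

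Lama4, the laminin alpha 4 chain of vessel and muscle basement membranes, had levels of 6.37, 4.15 and 4.58 against -3.34, -3.21 and -3.35 (8.33 ± 0.82, adjusted p = 0.00417). Its 4 probes all differed in the same direction, by 4.57 to 9.81. It was the only called gene of 18 basement membrane genes (median 1.15), and without satellite replicate 1 there were 5, with Lamb1, Lamc1, Nid1 and Col15a1. With all arrays Nid1 differed by 6.51 ± 1.27 (adjusted p = 0.0737) and Lamb1 by 6.02 ± 1.14 (adjusted p = 0.0672). Itga11, the alpha chain of a collagen-binding integrin of fibroblasts, had levels of 1.96, 2.21 and 1.86 against -6.44, -6.26 and -4.65, at least 136-fold (adjusted p = 0.00462), with a call in all 9 fits. Of 17 integrin alpha chains tested, a set put together after the values were seen, it was the only called member, and the median was 0.11. Itga7, the laminin-binding chain of muscle cells, differed by -1.08 ± 0.68 (adjusted p = 0.552).

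Of 35 matricellular and elastic fibre genes 28 were higher, beside 45.9% of all genes, and 4 rose, with a median of 2.31. Postn, which encodes periostin, had levels of 3.22, 3.99 and 4.53 against -4.01, -3.06 and -3.07 (7.29 ± 0.75, adjusted p = 0.00462). That call held in all 9 fits, while a second, dimmer Postn probe differed by 0.24. Fbn1, of fibrillin microfibrils, had levels of 5.9, 5.28 and 4.28 against -0.08, 0.51 and -2.41 (5.81 ± 0.93, adjusted p = 0.0348), and Efemp1, an elastic fibre glycoprotein, levels of 0.8, 2.59 and 2.51 against -5.25, -5.96 and -3.91 (7 ± 1.08, adjusted p = 0.0294). Ccn3, a matricellular protein, rose at least 29.8-fold. Their calls held in 1, 3 and 2 of 9 fits. The list count was 1 without any of the iPax7 replicates or without satellite replicate 3, and 7 without satellite replicate 1.

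Matrix proteases and their relatives gave 5 rises among 32 genes and 0 falls (median 1.38). Adamts12, a secreted metalloprotease, had levels of 4.25, 3.98 and 3.38 against -3.04, -3.73 and -3.37 (7.25 ± 0.67, adjusted p = 0.00332). It was above background on all 6 arrays, and the call held in all 9 fits and all 14 alternatives. Its other probe, also above background on all 6 arrays, differed by 3.63. Adamtsl3, which resembles these proteases without a catalytic domain, had levels of 3.39, 1.97 and 3.54 against -5.5, -6.29 and -6.03 (8.9 ± 0.69, adjusted p = 0.00199), and its other probe differed by 1.6. Mmp14, the membrane-type collagenase, had levels of 6.27, 5.2 and 5.07 against 0.31, -4.16 and -3.28 (7.89 ± 1.12, adjusted p = 0.021). Its 2 probes gave nearly equal differences, 7.888 and 7.89, and its call held in 4 of 9 fits. Mmp19 and the procollagen enhancer gene Pcolce2 rose with adjusted p of 0.0296 and 0.0498 and held in 2 and 1 fits. The list count was 2 without iPax7 replicate 1, iPax7 replicate 3, satellite replicate 2 or satellite replicate 3.

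Among receptors and growth factor genes, Pdgfra, the PDGF receptor that marks fibro-adipogenic progenitors, had levels of 5.48, 5.2 and 3.81 against -4.36, -2.91 and -2.24 (8 ± 0.79, adjusted p = 0.00417). Its second probe differed by 9.17, and the call held in all 9 fits and all 14 alternatives. Ly6a, the gene of Sca-1, stood at 4.43, 4.48 and 4.3 against -1.86, -0.6 and 0.16 (5.17 ± 0.73, adjusted p = 0.021), a call held in 5 of 9 fits. Igfbp6, an IGF-binding protein, had levels of 5.97, 4.44 and 5.34 against 0.09, -0.72 and -0.39 (5.59 ± 0.89, adjusted p = 0.0339), and the receptor tyrosine kinase gene Axl rose by 5.45 ± 0.88 (adjusted p = 0.0354). They held in 3 and 1 fits. Of 34 IGF, FGF, PDGF and HGF genes 22 were higher and 3 rose (median 1.15), and the count was 1 without any of the iPax7 replicates, without iPax3 replicate 1 or without satellite replicate 2 or 3. The PDGF ligand gene Pdgfb was lower on every iPax7 array (-3.07 ± 0.61, adjusted p = 0.0775), as was the FGF receptor gene Fgfr4, known from satellite cells (-3.11 ± 0.66, adjusted p = 0.0982). Gpc3, a glypican at the cell surface, rose by 8.83 ± 1.12 (adjusted p = 0.013) and the chemokine gene Ccl11 by 7.81 ± 1.29 (adjusted p = 0.041), the called members of 43 guidance and surface genes (median 0.08). They held in 5 and 1 fits, and the list had 0 without iPax7 replicate 1, iPax7 replicate 3, satellite replicate 2 or satellite replicate 3, and over probes above background on all 9 arrays (median -0.27).

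The fibro-adipogenic and fibroblast markers as a list had 23 of 25 members higher, beside 45.9% of all genes. The list had 4 rises (Pdgfra, Ly6a, Dcn, Col1a1) and a median of 2.84, beside -0.153 over all genes. Its summed linear level was 1520, 776 and 858 on the iPax7 arrays and 189, 191 and 420 on the satellite arrays, with no overlap. The count was 2 without iPax7 replicate 1 and 7 without satellite replicate 1. Osr1, a transcription factor of these progenitors, and Clec3b differed by 0.04 ± 0.94 and 0.11 ± 0.78, and Dpt, a matrix gene of fibroblasts, by 0.89 ± 0.83. Pi16 (5.65 ± 1.27, adjusted p = 0.117) and Gsn (4.87 ± 0.98, adjusted p = 0.0806) were higher on every iPax7 array. In sorted bulk samples more cells of a type and more RNA per cell cannot be told apart, and the share of host connective tissue cells in these samples was not tested.

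**Figure D2:**
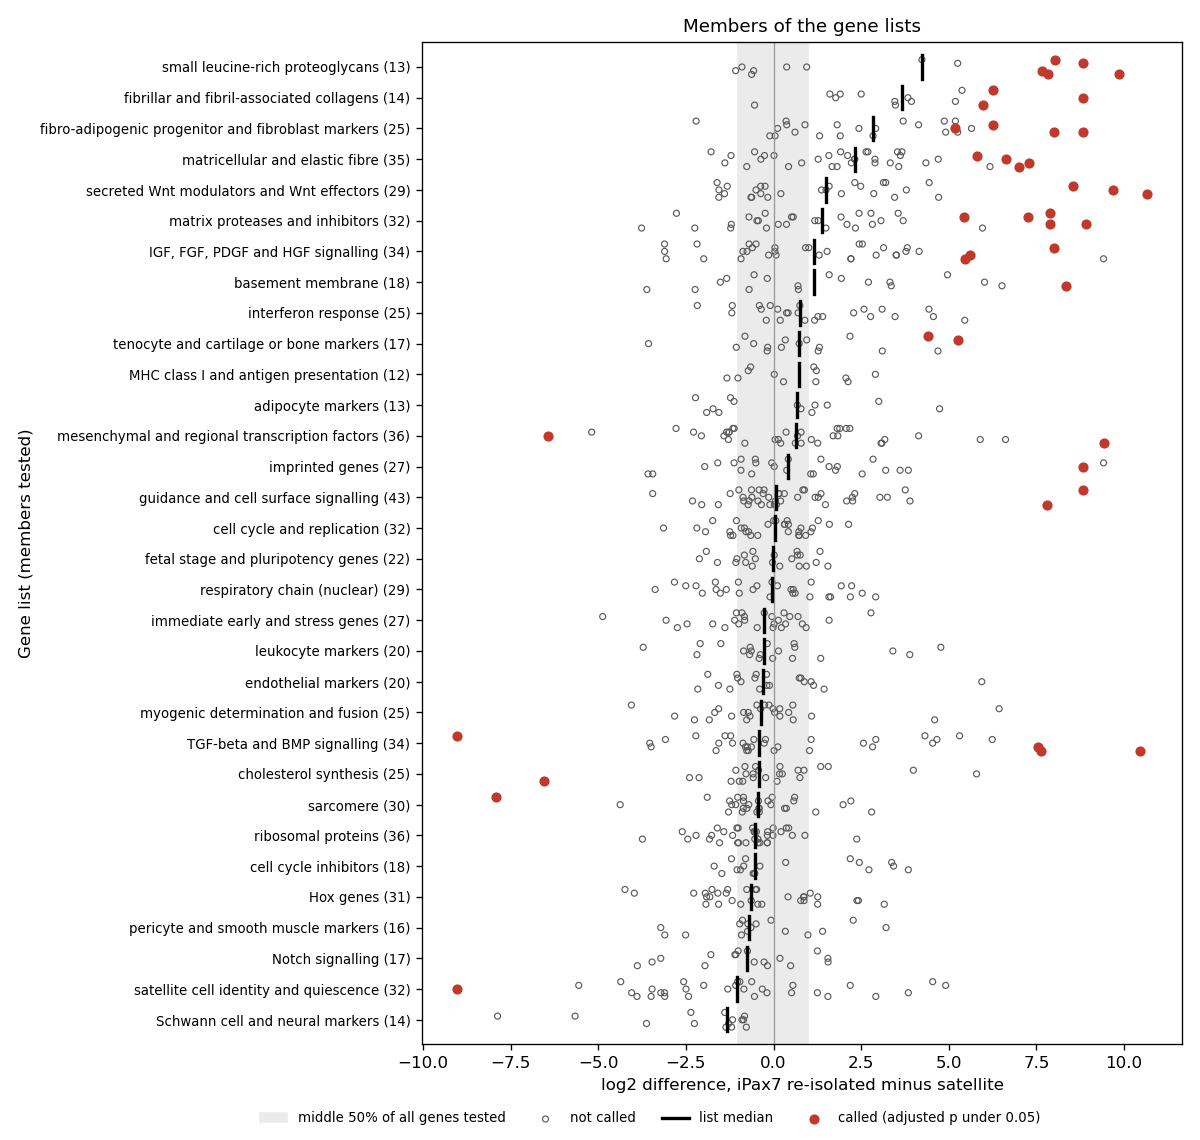
Difference of each member of 32 gene lists between iPax7 re-isolated and satellite cells (log2, horizontal axis), lists ordered by median, with members tested in brackets. Filled points were called, black bars are list medians and the grey band is the interquartile range of all genes. Medians run from -1.32 for Schwann cell and neural markers to 4.23 for small leucine-rich proteoglycans. The proteoglycan median was -0.1 over probes above background on all 9 arrays, a filter that drops probes dim on any array.

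Ebf1, an early B-cell factor also active in adipocyte and mesenchymal precursors, had levels of 3.05, 2.7 and 2.65 against -6.74, -6.29 and -6.84, at least 252-fold (adjusted p = 0.00199), and a second probe differed by 5.64. The call held in all 9 fits. Of its relatives Ebf2 was higher on every iPax7 array (5.9 ± 1.37, adjusted p = 0.13), while the arrays of Ebf3 and Ebf4 overlapped. Sim2, a bHLH-PAS factor of muscle and nervous system, had levels of -5.07, -5.78 and -5.1 against -0.62, 1.22 and 2.72 and fell by 6.42 (SE 0.9, adjusted p = 0.0208), with a call in 5 of 9 fits. These were the called genes of 36 mesenchymal and regional transcription factors, whose median was 0.65. The limb mesenchyme factor Gli3 was higher (6.62 ± 1.38, adjusted p = 0.0933), and 31 Hox genes had 0 calls and a median of -0.64.

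Ifi204, of the p200 family of interferon-inducible DNA-sensing proteins, had levels of 4.37, 4.47 and 4.05 against -1.5, -1.5 and -1.45 (5.78 ± 0.6, adjusted p = 0.00463). The values within each group were close, and the call held in all 9 fits and all 14 alternatives. Its neighbour on chromosome 1, Ifi207, had levels of 3.77, 2.92 and 2.28 against -6.17, -3.97 and -3.9 (7.67 ± 0.84, adjusted p = 0.0059), and Ifi205 levels of 6.09, 5.11 and 5.14 against -0.32, -2.41 and -3.34 (7.47 ± 0.89, adjusted p = 0.00893). The p200 genes were grouped after their values were seen. Of 8 tested, 7 were higher, 3 rose and the median was 5.03, and Ifi202b was close to the threshold (6.14 ± 1.12, adjusted p = 0.0566). Ifi209, in the same cluster, differed by -1.18 ± 0.74 (adjusted p = 0.55). These genes are close copies of each other, so probes may cross-hybridise.

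Interferon response genes as a list had 18 of 25 members higher, beside 45.9% of all genes. Of the 25, 0 were called and the median was 0.75, with the effector gene Iigp1 nearest to the threshold (5.45 ± 0.96, adjusted p = 0.0501). Of 12 MHC class I and antigen presentation genes 0 were called, with a median of 0.71. Schlafen genes, another interferon-regulated family grouped after their values were seen, had 2 rises among 6, Slfn9 (at least 52.4-fold) and Slfn10-ps (7.67 ± 1.12, adjusted p = 0.0229), and both held in 5 of 9 fits. Slfn5 had levels of 3.53, 3.72 and 3.25 against 0.71, -6.07 and -5.86. Satellite replicate 1 thus stood far above the other satellite arrays, and the difference of 7.24 ± 1.58 did not pass (adjusted p = 0.108). Host strain and group cannot be told apart for these genes.

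**Figure D3:**
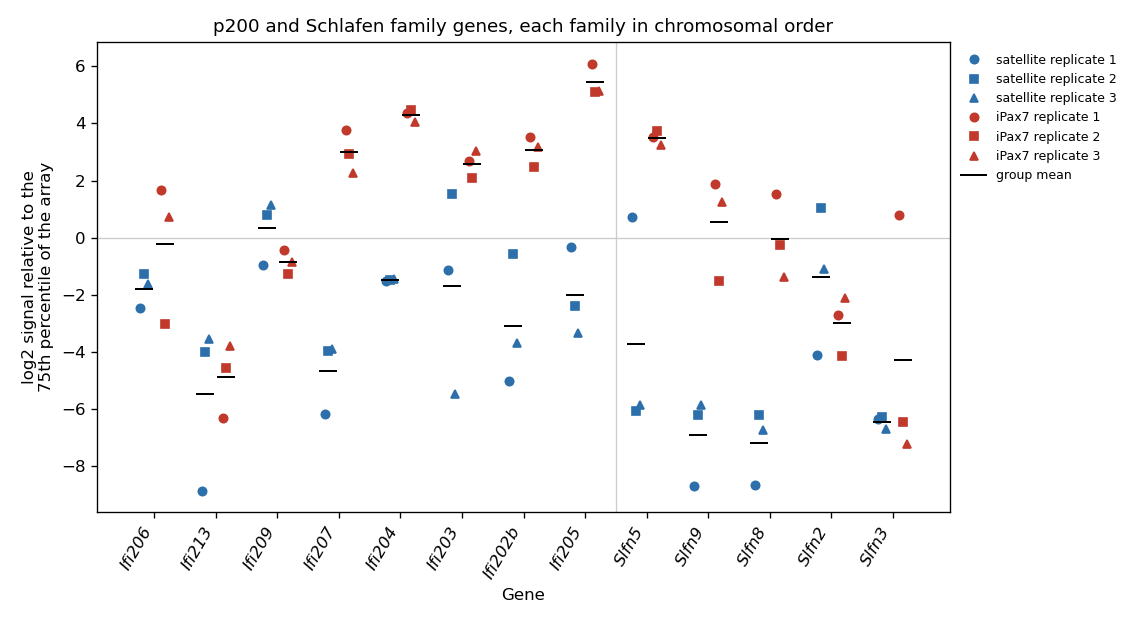
Levels of p200 family genes (left of the line) and Schlafen genes (right) on each array, log2 signal minus the array's 75th percentile, satellite cells in blue and iPax7 re-isolated cells in red, with symbols for replicates and bars for group means. Ifi204 iPax7 arrays sit between 4.05 and 4.47 and its satellite arrays between -1.5 and -1.45, while the arrays of Ifi206, Ifi209 and Ifi213 overlap.

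C1s1, the complement serine protease C1s, had levels of 6.4, 4.29 and 4.99 against -4.66, -3.23 and -2.16 (8.58 ± 0.93, adjusted p = 0.0059), a call held in all 9 fits and all 14 alternatives. Its relatives C1s2 (4.93 ± 1.01, adjusted p = 0.0888) and C1ra (2.5 ± 0.97, adjusted p = 0.347) were higher on every iPax7 array. Others of the core were Cyp1b1, a cytochrome P450 (at least 96.5-fold, another probe differing by 5.14), the ferrireductase gene Steap3 (at least 149-fold by the probe used, while another probe differed by 0.73), the secreted protease gene Prss23 (at least 64.1-fold, another probe 0.57), the LIM-binding factor gene Ldb2 (7.44 ± 0.83, adjusted p = 0.00665) and the RNA-binding protein gene Nova1 (7.6 ± 0.79, adjusted p = 0.00498). Ugdh, the enzyme that makes UDP-glucuronate for glycosaminoglycan chains, was measured on all 6 arrays, with levels of 5.59, 4.8 and 4.23 against -0.82, -0.42 and -0.81 (5.55 ± 0.76, adjusted p = 0.019). That call held in 4 of 9 fits. Angptl1, a secreted angiopoietin-like protein, rose by 6.46 ± 1.07 (adjusted p = 0.0413) and held in 1 fit, and its other probe differed by 2.99. Col2a1 and Cilp, cartilage matrix genes, rose among 17 tenocyte, cartilage and bone markers (median 0.73), by 4.41 ± 0.76 (adjusted p = 0.0486) and 5.25 ± 0.75 (adjusted p = 0.0219). The other probes of Col2a1 differed by -0.23 and -1.38. The list had 0 calls without any of the iPax7 replicates or without satellite replicate 2 or 3. Tnmd, the defining tendon marker, was above background on 1 iPax7 and 0 satellite arrays.

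The 22 falling genes were all above background on the 3 satellite arrays, as the filter required of any gene dim on every re-isolated array. Of the 22, 7 were above background on no iPax7 array, and 6 were measured on all 6 arrays. Those 6 were Pde4b, a cAMP phosphodiesterase, Pold1, the catalytic subunit of DNA polymerase delta, Xrcc4, of DNA end joining, Cplx4, a complexin of synapses, Psmb4, a proteasome subunit, and Pou3f2, a neural POU factor. Pde4b had levels of -1.52, 0.55 and -1.4 against 5.42, 5.07 and 4.87 and fell by 5.91 (SE 0.82, adjusted p = 0.0205), a call held in 5 of 9 fits. Its 3 other probes differed by -3.7, 0.34 and -4, the last of them too dim to be kept. Pold1 had levels of -1.59, -1.05 and -1.84 against 2.49, 4.51 and 5.4 and fell by 5.62 (SE 0.96, adjusted p = 0.0474), while its other probe differed by -3.68. The calls of Pold1, Xrcc4, Psmb4 and Pou3f2 held in 1 of 9 fits and that of Cplx4 in 2. Satellite replicate 1 was the lowest satellite array for Pold1, Xrcc4, Psmb4, Cplx4 and Pou3f2.

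The unnamed transcript TC1629563 fell at least 29.3-fold (adjusted p = 0.00339), and its call, like that of Chrdl2, held in all 9 fits. Ankrd1, an ankyrin repeat protein of stressed muscle, had levels of -6.32, -3.98 and -5.21 against 2.56, 0.95 and 4.7 and fell by 7.91 (SE 1.13, adjusted p = 0.0217). It was the called gene of 30 sarcomere and fibre genes, of which 8 were higher (median -0.46), and it was lost without iPax7 replicate 1, iPax7 replicate 3 or satellite replicate 3. Erfe, the hormone erythroferrone, fell from 4.48, 3.14 and 5.68 to -4.71, -4.75 and -2.46 (difference -8.41 ± 1.26, adjusted p = 0.0246), with a call in 4 of 9 fits. Of the 121 called genes 50 had a further probe, and in 10 a further probe had the opposite sign, among them the falls of Pde4b, Pitpnc1, Atf7ip and Cyp51. Cyp51, of cholesterol synthesis, fell by 6.56 by the probe used, while its other probes differed by 2.06 and 3.54. It was the only called gene of 25 cholesterol genes (median -0.43).

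Pax7 itself was low in the iPax7 cells. Its levels were -3.9, -3.25 and -3.76 against 2.89, 3.53 and -0.66, without overlap (-5.56 ± 1.21, adjusted p = 0.108), and the call was made without satellite replicate 3 (-6.85 ± 1, adjusted p = 0.0497). Whether the probe can read a Pax7 transgene was not examined. Of 32 satellite identity and quiescence genes 9 were higher, Chrdl2 alone was called, and the median was -1.05. Their summed linear level was 334, 152 and 172 against 353, 406 and 444, lower on every iPax7 array. Lower on every iPax7 array without a call were Cdh15, the muscle cadherin (-4.36 ± 1.07, adjusted p = 0.149), Heyl, a Notch target (-3.47 ± 0.71, adjusted p = 0.0882), Des, the intermediate filament of muscle (-3.11 ± 0.76, adjusted p = 0.149), Sdc4, a syndecan (-2.43 ± 0.76, adjusted p = 0.251), and Megf10 (-3.9 ± 1.32, adjusted p = 0.282). Calcr, the calcitonin receptor of quiescent satellite cells, had levels of -1.1, -4.45 and -1.52 against 3.57, -3.06 and 4.58, which overlapped.

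Members on the other side were Cdkn1c, which encodes the cell cycle inhibitor p57, with levels of 3.29, 3.44 and 3.32 against 0.26, -1.18 and -0.58 (3.84 ± 0.72, adjusted p = 0.0641), and Cd34 (4.91 ± 1.32, adjusted p = 0.187). Without satellite replicate 1, Cdkn1c (4.22 ± 0.71, adjusted p = 0.0317) and Cd34 (6.5 ± 0.89, adjusted p = 0.015) were called higher and Bmp6 (-3.97 ± 0.7, adjusted p = 0.0358) lower. Vcam1, Itga7, Spry1 and Cxcr4 had arrays that overlapped, with differences between -1.99 and 0.51. Of 17 Notch genes 5 were higher and 0 called (median -0.75). Of 18 cell cycle inhibitors 0 were called (median -0.54), and of 32 cell cycle and replication genes 0 (median 0.03).

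**Figure D4:**
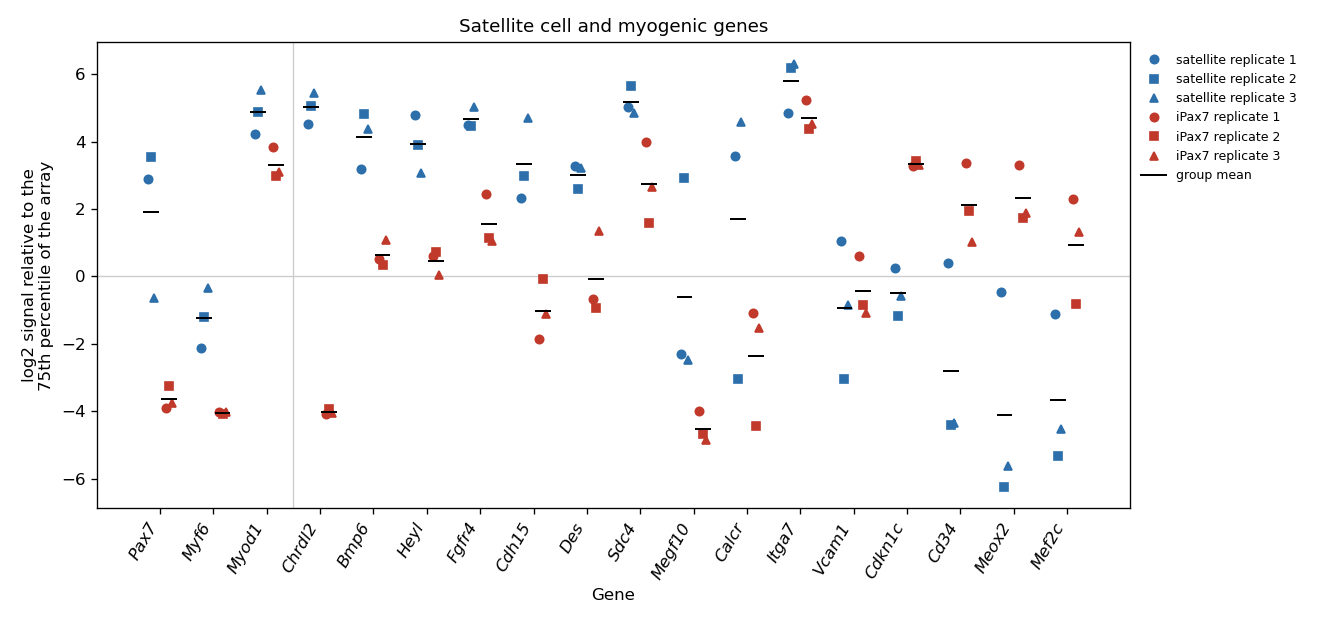
Levels of Pax7, Myf6 and Myod1 (left of the line) and of satellite cell and myogenic genes on each array, log2 signal minus the array's 75th percentile, satellite cells in blue and iPax7 re-isolated cells in red, with symbols for replicates and bars for group means. Chrdl2 is the called gene. Pax7, Myf6, Myod1, Bmp6, Heyl, Fgfr4, Cdh15, Des, Sdc4 and Megf10 lie lower on every iPax7 array without passing. Cdkn1c, Cd34, Meox2 and Mef2c lie higher on every iPax7 array without passing.

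Of 25 myogenic determination and fusion genes tested, 22 were above background on all 3 iPax7 arrays and 22 on all 3 satellite arrays. The determination gene Myf5, listed with the satellite identity genes, was not among the genes tested. Myod1, the master regulator of myoblasts, had levels of 3.84, 2.99 and 3.11 against 4.22, 4.88 and 5.54 (-1.57 ± 0.66, adjusted p = 0.386). Myf6 had levels of -4.02, -4.09 and -4.03 against -2.14, -1.2 and -0.33 (-2.82 ± 0.69, adjusted p = 0.148). Myog, which drives differentiation, overlapped, with satellite replicate 3 at 3.5 and satellite replicates 1 and 2 at -3.97 and -3.32. Of 25 genes of this list 9 were higher and 0 called (median -0.37, and 0.03 without satellite replicate 3). Meox2, a homeobox gene of limb muscle precursors, had levels of 3.31, 1.74 and 1.89 against -0.46, -6.26 and -5.64 (6.43 ± 1.4, adjusted p = 0.108), and Mef2c differed by 4.6 ± 1.36 (adjusted p = 0.223). Without satellite replicate 1 Meox2 was called higher (8.26 ± 0.77, adjusted p = 0.00466) and Myf6 lower (-3.28 ± 0.63, adjusted p = 0.0465).

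Markers of other cells of muscle were read on the same arrays, and their part in the results above was not tested. Endothelial markers had 0 of 20 called and a summed level of 207, 67 and 54.6 in iPax7 cells against 83.3, 55.5 and 53.1 in satellite cells. Pecam1, the defining endothelial marker, read 5.13 on iPax7 replicate 1, 1.92 and -1.71 on the others. Leukocyte markers had 0 of 20 called and sums of 81.1, 21.2 and 23.6 against 10.6, 21.9 and 30.5. Ptprc, the gene of CD45, read 2.01, 0.55 and -3.73 against -5.36, -2.26 and -3.76, and Cd3e read 2.79 on iPax7 replicate 1 and -3.65 and -3.17 on the others. Thus iPax7 replicate 1 carried the highest endothelial and leukocyte readings. Without that array 31 of the 121 calls remained, among a total of 35. Pericyte and smooth muscle markers (16 genes, sums of 69.1 to 147 against 90 to 117) and adipocyte markers (13 genes, 81 to 223 against 57.2 to 68.2) had 0 calls. Schwann cell and neural markers were lower in 14 of 14 genes, beside 12286 of 22705 over all genes. Of these markers 0 were called (median -1.32, sums of 20 to 31.6 against 43.6 to 99.2). Map2, a neuronal microtubule gene, had the largest difference among them (-7.88 ± 1.61, adjusted p = 0.0868).

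Against the iPax3 re-isolated cells, limma called 0 of 22705 genes, 931 had an unadjusted p under 0.05, and the smallest adjusted p was 0.066. A p over the threshold does not show the lines to be alike. For Fst, iPax3 arrays read 3.69, 3.34 and 3.55 (iPax7 minus iPax3 0.17 ± 0.65), for Dcn 7.58, 6.76 and 7.87 (0.24 ± 0.75) and for Chrdl2 -3.95, -3.43 and -5.19 (0.16 ± 0.69), each with an adjusted p of 1. Bmp5 read 3.69, 3.57 and 3.97 in iPax3 cells (-2.01 ± 0.76) and Ebf1 1.54, 2.11 and -0.51 (1.75 ± 0.79). Tmem203 had the smallest adjusted p (9.39 ± 0.93, adjusted p = 0.066), with iPax3 arrays at -7.61, -7.34 and -7.62 and iPax7 arrays at 3.97, 0.3 and 1.33. It rose at least 132-fold from satellite to iPax7 cells. In their own comparison with the same satellite arrays, iPax3 cells had 98 called genes (0.432%). Both comparisons share their controls. The iPax3 arrays were all on slide 1, with iPax7 replicate 1, and were scanned on scan day 1, as were all iPax7 arrays. The satellite arrays had other slides and scan days. Likeness of the 2 lines and a shared batch therefore cannot be told apart.

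RefSeq promoters (GRCm38.p6, 250 bases before to 50 after a start) were at hand for 58 of the rising and 12 of the falling genes. Motifs were searched on both strands, and overlaps between motifs were not removed. The E-box CAGCTG, which myogenic bHLH factors bind, stood in 24.7% of 77 promoters of rising genes, 6.67% of 15 of falling genes and 16.3% of all 32851. The palindrome of early B-cell factors stood in 2.6% of the rising promoters, those of Ecm2 and Mmp14, and in 0.904% of all. The TEAD motif GGAATG stood in 10.4% of the rising promoters against 14.7% of all. For the RBPJ motif TGGGAA the shares were 18.2% and 25.6%. The TATA box, searched as TATAAA, was in 7.79% against 13.6%. The AP-1 motif TGANTCA was found in 6.49% against 7.81%. These matches are descriptions of letters, not of binding. Upstream stretches of 250 bases are shown for 3 genes whose calls held in all 9 fits, with the motif in capitals, the E-box at position 190 in Podn and 76 in Adamts12 and the TATA box at position 219 in Dkk2, counted from the 5′ end. Of the 2 Podn promoters listed, the other held no such E-box upstream.
Podn, chr4:108030987-108031236, minus strand: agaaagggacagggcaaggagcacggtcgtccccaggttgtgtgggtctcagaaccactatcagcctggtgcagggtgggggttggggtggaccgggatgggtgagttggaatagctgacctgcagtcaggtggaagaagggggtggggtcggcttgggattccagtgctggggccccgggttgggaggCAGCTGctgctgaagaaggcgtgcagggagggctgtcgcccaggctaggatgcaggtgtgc
Adamts12, chr15:11064523-11064772, plus strand: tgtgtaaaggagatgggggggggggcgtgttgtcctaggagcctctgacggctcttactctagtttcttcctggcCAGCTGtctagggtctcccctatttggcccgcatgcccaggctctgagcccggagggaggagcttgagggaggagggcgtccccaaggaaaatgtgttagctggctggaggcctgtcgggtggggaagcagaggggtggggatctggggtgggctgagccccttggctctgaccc
Dkk2, chr3:132085042-132085291, plus strand: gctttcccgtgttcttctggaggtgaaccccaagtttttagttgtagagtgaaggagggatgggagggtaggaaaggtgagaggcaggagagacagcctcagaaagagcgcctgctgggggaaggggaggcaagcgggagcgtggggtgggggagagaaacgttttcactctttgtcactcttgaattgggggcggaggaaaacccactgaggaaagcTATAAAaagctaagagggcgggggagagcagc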

How the data were processed

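RNA of sorted cells was hybridised to Agilent mouse arrays in 1 colour (3 arrays per group). The deposited intensity values are the processed signals of Agilent Feature Extraction 10.5.1.1, detrended and background-subtracted, per the file headers, which name mm8. The deposited value table holds log2 values of unstated normalisation, uncentred and in one direction with the scanner values (r from 0.9875 to 0.9993), and served as an alternative. Its column medians were 7.704, 7.709 and 7.68 (iPax3 replicates 1 to 3), 7.69, 7.701 and 7.669 (iPax7) and 7.676, 7.633 and 7.656 (satellite). The submitters' processing notes name limma. A spot counted as well above background by the software's flag (13 standard deviations, per the file headers).

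Control spots and outlier flags were left out, the 75th percentile of each array was subtracted from log2 signals, and spots of a probe were averaged. Probes well above background on at least 3 of 9 arrays were kept (32967 of 41174), and the probe with the highest mean stood for its gene, giving 22705 genes. Names came through RefSeq accessions (24375 probes), current (6301) or older symbols (2426), or the file (8072). Group means over all 9 arrays, with no block, were fitted in limma 3.58.1 (R 4.3.3), a script checked on simulated data. Values after ± are standard errors. There were 14 alternatives and 9 fits leaving out 1 array. Named genes were the largest, stablest and best measured calls, called list members and up to 3 near misses per list, satellite and myogenic genes and defining markers. Genes outside this rule were picked after their values were seen: the p200, Schlafen, Ebf, complement and integrin families and Tmem203 against iPax3. The gene lists and the comparison were chosen with earlier results of these data known. Same-numbered replicates were not paired: deviations of iPax7 and satellite samples correlated at -0.129, -0.0857 and 0.0134.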

Additional observations from a re-analysis of the deposited data

How the results depend on the processing

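The count of 121 called genes was 69 with median scaling, 76 over probes above background on all 9 arrays (13682 genes tested), 38 with only the 6 arrays compared, 196 in the deposited value table, and 43 and 36 with the slide or the scan day as a random block. The replicate block gave 55, 52 of them among the 121, and no pairing was shown. Of the 121 genes, only 46 could be tested over probes above background on all 9 arrays, a filter that drops probes dim on any array. Leaving out 1 array gave 35 to 490. Called list members, 37 as reported, numbered 22 over probes above background on all 9 arrays, 15 with the 6 arrays, 58 in the deposited table, 19 and 17 with the slide or scan-day block, 22 with the replicate block, and 14 to 62 with 1 array left out. Against iPax3, 1 gene was called with quantile normalisation, with the 75th percentile over probes above background on all arrays, with probes averaged per gene and with the slide block, and 0 otherwise. Of the single genes, 3 reversed, all without a call: Pitpnc1 (0.205) and Psd3 (-2.12) over probes above background on all 9 arrays, and Cyp51 (2.17) in the deposited table. Other probes stood for Pitpnc1 and Psd3 there, and for Cyp51 the cause was not tested. Of the 121 calls, 21 were kept in all alternatives that measured them and all 9 fits with 1 array left out. The causes of these differences in count were not tested. Low signal limits the sizes: 24 rises and 7 falls have a bound only. A further 43 rises and 9 falls were above background on only 1 or 2 arrays of the lower group. Their sizes rest partly on signals near the floor. Among the 22705 genes tested, those with a p over the threshold are not shown to be equal.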

Other observations

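Ribosomal protein genes had 6 of 36 members higher in iPax7 cells, 0 called and a median difference of -0.54 beside -0.153 over all genes. Nuclear genes of the respiratory chain had 14 of 29 higher, 0 called and a median of -0.05. Immediate early and stress genes, which can rise while cells are being dissociated, had 11 of 27 higher and 0 called, and the heat shock gene Hspa1a was lower on every iPax7 array (-3.07 ± 0.78, adjusted p = 0.163), as was the nuclear receptor gene Nr4a3 (-4.88 ± 0.87, adjusted p = 0.0545). Fetal stage and pluripotency genes had 11 of 22 higher and 0 called, with Pou5f1, the pluripotency factor, at -1.6 ± 0.83 (adjusted p = 0.479).

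Of 27 imprinted genes 16 were higher, and Dcn was the called member. Igf2, the fetal growth factor, had levels of 6.27, 5.84 and 5.8 in iPax7 cells. Its satellite arrays split, with 2.64 on replicate 1 and -6.25 and -6.73 on replicates 2 and 3 (9.41 ± 2.1, adjusted p = 0.115), and without satellite replicate 1 it was called. Meg3, an imprinted non-coding RNA, had levels of 8.15, 6.45 and 7.14 against 6.54, 6.39 and 7.69 (0.37 ± 0.72, adjusted p = 0.866).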
